A study of Mus musculus with 6 samples.

Results

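The genes described are those that cardiac muscle and connective tissue cells are known to switch on under stretch and load. They were chosen by name, as 3 core genes (Ankrd1, Cyr61 and Acta1) and 5 more of the same kind (Ankrd2, Ctgf, Xirp1, Xirp2 and Rcan1). Of these 8 genes, 6 had rows in the table of 8969 protein-coding genes. Xirp1 and Xirp2 had none and were not analysed here. Levels are in FPKM, a read count divided by the length of the transcript and the size of the library, and were summed over a gene's listed transcripts.

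The study compared 2 groups of 3 hearts from male mice, each isolated and kept alive by Langendorff perfusion through the coronary vessels. In the I/R (ischaemia and reperfusion) hearts, Tomas cardioplegia stopped contraction for 30 min and perfusion was then restored for 1 h. By the labels, the beating of the Sham hearts was not stopped. The labels name no strain, age or genetic change. The RNA came from heart tissue of mixed cell types, in which fewer cells of a type and less RNA per cell cannot be told apart. A higher or lower level below is therefore a property of the tissue taken from each heart. That tissue may differ in its parts, since the atrial gene Myl7 ranged from 0.22 FPKM in I/R replicate 1 to 326 FPKM in I/R replicate 2.

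Muscle cells and fibroblasts sense load through the actin cytoskeleton, the sarcomere and their contacts with the matrix. A pair of transcriptional routes carry much of that signal. YAP and TAZ move to the nucleus and bind DNA through TEAD factors, and actin polymerisation frees MRTF to act with SRF. Ankrd1 encodes CARP, a nuclear and sarcomeric ankyrin repeat protein that binds the titin spring region and is a widely used reporter of YAP activity and of cardiac stress. Cyr61 (also named Ccn1) encodes a secreted matricellular protein that binds integrins and is induced early after stretch. Acta1 encodes the alpha actin of skeletal muscle, which is expressed in fetal and overloaded hearts beside the cardiac form. Ankrd2 encodes the stretch-responsive ankyrin repeat protein of slow skeletal muscle, Ctgf (Ccn2) a matricellular relative of Cyr61, and Rcan1 a feedback inhibitor of the phosphatase calcineurin.

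The bases just before the start sites of the 3 core genes are shown because the known regulators named above act through short motifs of this kind. They are RefSeq windows of the GRCm38.p6 build, 250 bases ending at the base before the start site, each on the minus strand and printed 5′ to 3′ in the direction of the gene. Capitals mark the letters GGAATG or their complement, the core of the TEAD motif, and in Acta1 also the CArG box bound by SRF.
Ankrd1, chr19:36119845-36120094: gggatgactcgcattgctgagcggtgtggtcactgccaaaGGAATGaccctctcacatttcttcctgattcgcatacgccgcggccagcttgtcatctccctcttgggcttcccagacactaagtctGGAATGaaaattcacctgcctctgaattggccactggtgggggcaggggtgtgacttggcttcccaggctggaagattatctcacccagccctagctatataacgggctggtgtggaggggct
Cyr61, chr3:145649986-145650235: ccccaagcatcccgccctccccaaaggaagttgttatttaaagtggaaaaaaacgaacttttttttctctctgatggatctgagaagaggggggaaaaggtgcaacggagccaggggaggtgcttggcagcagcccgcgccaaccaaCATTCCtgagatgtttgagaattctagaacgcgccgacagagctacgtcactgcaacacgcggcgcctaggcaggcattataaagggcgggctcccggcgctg
Acta1, chr8:123894776-123895025: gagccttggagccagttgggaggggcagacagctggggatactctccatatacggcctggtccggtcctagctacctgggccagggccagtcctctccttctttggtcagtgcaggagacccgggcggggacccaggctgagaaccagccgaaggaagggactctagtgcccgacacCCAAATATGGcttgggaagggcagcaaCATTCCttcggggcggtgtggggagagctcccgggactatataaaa

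The Ankrd1 window held GGAATG at 2 places, 210 to 205 and 123 to 118 bases before the start site. The Cyr61 window held it once, on the opposite strand, 103 to 98 bases before the start site. In the Acta1 window it lay on the opposite strand 46 to 41 bases before the start site, and the CArG box lay 73 to 64 bases before it, without overlap. Over 32851 windows of the same length, 12.6% held GGAATG on either strand and 1.47% a CArG box. TGANTCA, the AP-1 motif, was in 6.75% of all windows and in none of these 3. It was present once in 1 of the 2 windows of Rcan1, which has separate start sites, 110 to 104 bases before that start. The window of Ankrd2 held none of the 3 motifs, and Ctgf had no window in the table used. Distances are counted from RefSeq's start sites. The deposited table starts Cyr61, Acta1 and Ankrd2 inside the RefSeq genes, at 145649981, 123894751 and 42036038, so distances from its starts would be longer. It starts Rcan1 at 92470867, upstream of the 2 windows read here. A match of letters is a description of the window and was not tested as a binding site.

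**Figure D1:**
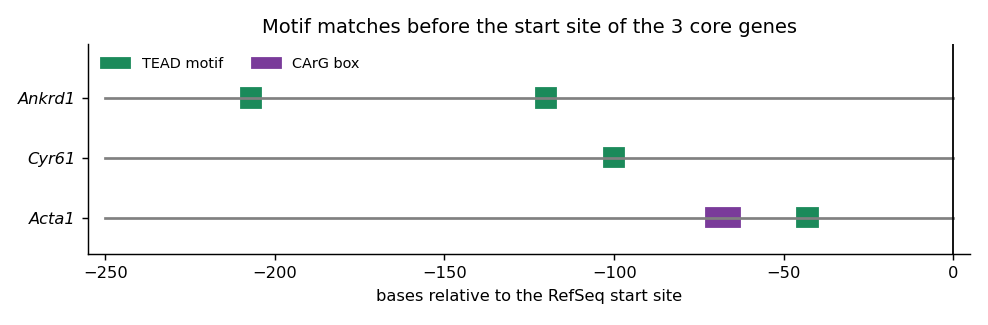
Positions of motif matches in the 250 bases before the RefSeq start site (x axis, in bases relative to the start site at 0) of Ankrd1, Cyr61 and Acta1. Green boxes mark the TEAD core motif on either strand, present 2 times in Ankrd1 and once each in Cyr61 and Acta1, and the purple box marks the CArG box of Acta1.

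The core genes were among the most abundant of the protein-coding genes that have rows in the table. Genes without a row, such as Actc1, are not ranked, so the places below are not places among all transcripts of these hearts. Ranked by mean FPKM over the 6 hearts, Ankrd1 was 17th, Cyr61 24th and Acta1 25th of 8969 genes, while Ctgf was 2841st, Rcan1 3377th and Ankrd2 3875th. Per length, Ankrd1 averaged 939 FPKM, Cyr61 699.7 FPKM and Acta1 680.5 FPKM over all hearts, against 2.56 FPKM for Ctgf, 1.66 FPKM for Rcan1 and 1.15 FPKM for Ankrd2. The libraries held 7233171 to 9902397 reads behind the FPKM of protein-coding genes, and the listed rows held 36.8% to 39.9% of them. Transcripts of these genes that have no row were not analysed here. No gene of the whole table had an adjusted p under 0.05 (limma, 0 of 12114 genes, 0%), with 1023 genes at an unadjusted p under 0.05, and limma voom on reads recovered from the FPKM gave 0 and 1010 of 12113. The smallest adjusted p was 0.385. Each difference below is the I/R mean less the Sham mean on the scale log2(FPKM + 1), ± SE from that limma model, with n = 3 hearts per group. Group values are means ± SD.

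Ankrd1 (ENSMUSG00000024803, in the table's coordinates chromosome 19, 36111965 to 36119844, minus strand) was the one member whose I/R hearts all lay above the Sham hearts. Its level was 1359.9, 968 and 1158 FPKM in I/R replicates 1, 2 and 3, and 558, 860.5 and 731 FPKM in Sham replicates 1, 2 and 3. The lowest I/R heart was thus above the highest Sham heart. The means were 1162 ± 196 FPKM in I/R and 716 ± 152 FPKM in Sham, a ratio of 1.62. The difference was 0.71 ± 0.19 on the log2 scale, with a 95% interval of 0.26 to 1.15. It did not pass once adjusted across the whole table (limma, adjusted p = 0.420), and an exact two-sided permutation test gave p = 0.1, the smallest that 3 hearts against 3 can give. Groups that did not overlap with I/R higher were found for 8.83% of the 5041 protein-coding genes tested (445 genes), and for 5.12% with I/R lower. Ankrd1 was also the one member with an unadjusted p under 0.05 in limma, as were 3.43% of protein-coding genes with I/R higher and 1.67% with I/R lower. The 95th percentile of the differences of all protein-coding genes was 0.48, below the difference of Ankrd1. One transcript of 1765 bases (ENSMUST00000025718) was listed, with 15207 to 18458 reads per I/R heart and 9335 to 14646 reads per Sham heart. With each heart left out in turn, the difference stayed between 0.54, without Sham replicate 1, and 0.85, without Sham replicate 2.

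Cyr61 (ENSMUSG00000028195, chromosome 3, 145646976 to 145649981, minus strand) was higher in I/R by its mean, but the groups overlapped. It was at 498, 921 and 997 FPKM in I/R replicates 1, 2 and 3, and at 389.9, 726 and 666 FPKM in Sham replicates 1, 2 and 3. I/R replicate 1 lay below Sham replicates 2 and 3, and the other 2 I/R hearts lay above every Sham heart. The means were 805 ± 269 FPKM in I/R and 594 ± 179 FPKM in Sham. The difference of 0.43 ± 0.33 had a 95% interval of −0.36 to 1.21 and did not pass the test (limma, adjusted p = 0.784; exact permutation p = 0.4). It depended on single hearts, at 0.15 without Sham replicate 1, 0.24 without I/R replicate 3 and 0.74 without I/R replicate 1. One transcript of 2019 bases was listed, with 7731 to 16542 reads per I/R heart and 7795 to 14142 reads per Sham heart.

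Acta1 (ENSMUSG00000031972, chromosome 8, 123891769 to 123894751, minus strand) had the largest difference of the 6 genes and by far the largest spread between hearts. It was at 1371, 349 and 769 FPKM in I/R replicates 1, 2 and 3, and at 162, 1173 and 259 FPKM in Sham replicates 1, 2 and 3. The heart with the second highest level was a Sham heart, and the groups overlapped. The highest value was 3.93 times the lowest within I/R and 7.23 times the lowest within Sham. The means were 829.6 ± 514 FPKM in I/R and 531 ± 558 FPKM in Sham. The difference of 0.96 ± 0.79 had a 95% interval of −0.91 to 2.84 and did not pass the test (limma, adjusted p = 0.798; exact permutation p = 0.4). Leaving out 1 heart moved it to 0.38 without Sham replicate 1, 0.50 without I/R replicate 1, 1.48 without I/R replicate 2 and 1.80 without Sham replicate 2. Nearly all of its reads lay on the transcript ENSMUST00000034453 of 1446 bases, with 4471 to 15240 reads per I/R heart and 2306 to 16333 reads per Sham heart. The second listed transcript, ENSMUST00000212584 of 616 bases, had 3 to 6 reads per I/R heart and 5 to 11 reads per Sham heart. Actin genes have nearly identical coding sequences, so reads of Acta1 may be shared with other actins, and Actc1, the cardiac alpha actin, had no row to compare with.

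**Figure D2:**
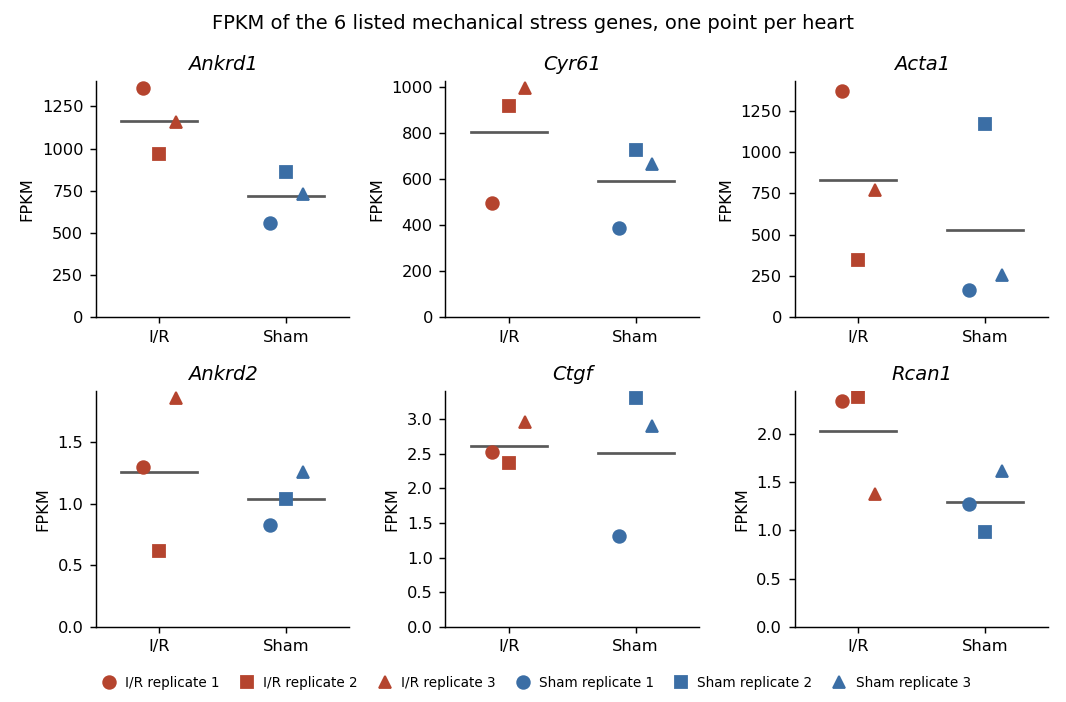
FPKM (y axes, linear from 0) of Ankrd1, Cyr61, Acta1, Ankrd2, Ctgf and Rcan1 in each of the 3 I/R hearts (red, left) and 3 Sham hearts (blue, right), with the marker shape giving the replicate and the line the group mean. The I/R hearts lay above the Sham hearts for Ankrd1, from 968 FPKM upwards against at most 860.5 FPKM, and the groups overlapped for the other 5 genes.

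The spread of the core genes within groups was set against genes of like level, those with a mean FPKM within 4-fold. The core gene itself is counted among them. The pooled within-group SD of log2(FPKM + 1) was 1.26 for Acta1, and none of the 125 genes of like level had a larger one. Cyr61 had an SD of 0.52, exceeded by 8 of 123 genes, and Ankrd1 one of 0.28, exceeded by 11 of 85. The median SD of those genes was 0.11 in each case. The core genes had at least 2314 reads in every heart, a depth at which counting error is small beside these SDs.

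Across hearts the 3 core genes did not share one order. Sham replicate 1 was the lowest heart for all of them. Above it, Ankrd1 and Acta1 were both highest in I/R replicate 1, where Cyr61 was second lowest. Cyr61 was highest in I/R replicate 3. In I/R replicate 2 Cyr61 was second highest, while Acta1 was below the other 2 I/R hearts and Sham replicate 2. Within the Sham group, replicate 2 was the highest heart for each of the 3 genes.

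**Figure D3:**
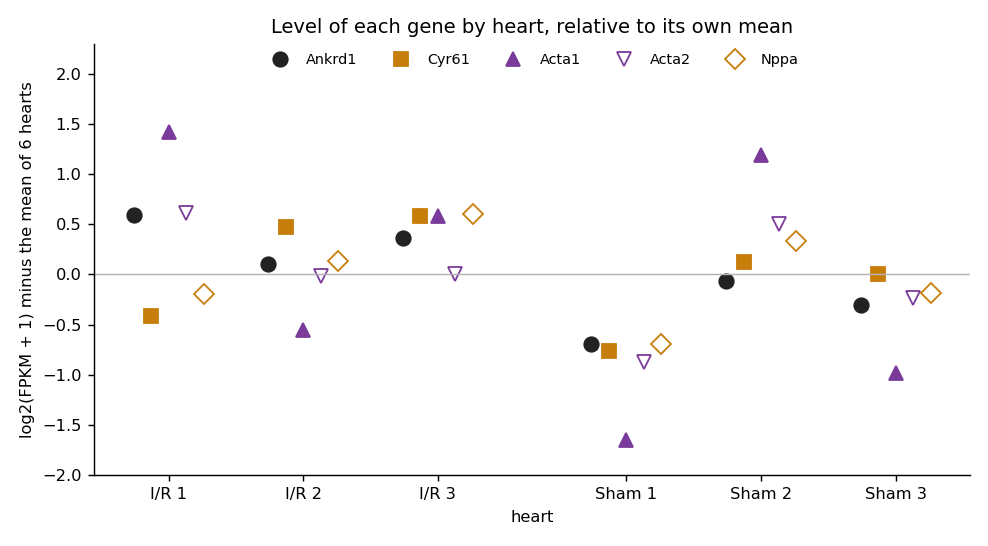
Level of Ankrd1, Cyr61, Acta1, Acta2 and Nppa in each heart (x axis, I/R hearts left, Sham hearts right), as log2(FPKM + 1) minus the gene's own mean over the 6 hearts (y axis). All 5 genes were lowest in Sham replicate 1, and Acta1 reached its 2 highest levels in I/R replicate 1 and Sham replicate 2, as did the smooth muscle actin gene Acta2.

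Genes with the most similar course over the 6 hearts were found by Pearson's r of log2(FPKM + 1) among protein-coding genes averaging 5 FPKM or more, as a description. For Ankrd1 these were the lysosomal protease gene Ctsl (r = 0.996), Dnajc21 (0.979), the translation factor gene Eif3g (0.978), Dact3 (0.978) and the prothymosin gene Ptma (0.975). Ctsl was at 10.8, 7.23 and 8.51 FPKM in I/R and 4.21, 6.40 and 5.41 FPKM in Sham, the same order of hearts as Ankrd1. For Cyr61 they were the early response gene Ier3 (0.984), the inducible cyclooxygenase gene Ptgs2 (0.972), Nubp2 (0.969), Enc1 (0.968) and Oat (0.964). Ier3 was at 127, 263 and 379.6 FPKM in I/R and 96.6, 210.1 and 201 FPKM in Sham. Among the 5 genes closest to Acta1 were Aggf1 (0.992), the chloride cotransporter gene Slc12a2 (0.982), Elovl5 (0.962) and Rexo2 (0.958). All these r share the same 6 libraries and 2118 genes were compared for each member, so high values are frequent. With 1 heart left out, only 1 to 3 of the 5 closest genes of a member were again among its closest 5. Between the core genes themselves, r was 0.82 for Ankrd1 and Acta1, 0.45 for Ankrd1 and Cyr61 and 0.28 for Cyr61 and Acta1.

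Ankrd2 (ENSMUSG00000025172, chromosome 19, 42036038 to 42045110, plus strand) was close to the floor of detection. It was at 1.30, 0.613 and 1.86 FPKM in I/R replicates 1, 2 and 3, and at 0.826, 1.04 and 1.26 FPKM in Sham replicates 1, 2 and 3, with I/R hearts both highest and lowest. These values rest on 33 reads over the I/R hearts (95% exact Poisson interval 22.7 to 46.3) and 30 reads over the Sham hearts (20.2 to 42.8), and the intervals cover counting error only. The difference was 0.11 ± 0.26 (95% interval −0.51 to 0.74; limma, adjusted p = 0.942), and −0.077 without I/R replicate 3.

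Ctgf (ENSMUSG00000019997, chromosome 10, 24595442 to 24598683, plus strand) was at 2.52, 2.36 and 2.96 FPKM in I/R replicates 1, 2 and 3. In Sham replicates 1, 2 and 3 it was at 1.31, 3.31 and 2.90 FPKM, so that Sham hearts were both lowest and highest. The difference was 0.091 ± 0.28 (95% interval −0.57 to 0.76; limma, adjusted p = 0.958), and −0.19 without Sham replicate 1. Over its 2 listed transcripts Ctgf had 157 reads in I/R hearts and 163 in Sham hearts. How the authors assigned reads to transcripts is not stated, so the level and rank of a gene with several transcripts, such as Ctgf, may rest on part of its reads. The lncRNA Gm15270 is annotated on the opposite strand over part of Ctgf, and whether the authors counted by strand is not stated, so reads of the 2 genes may be mixed.

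Rcan1 (ENSMUSG00000022951, chromosome 16, 92391953 to 92470867, minus strand) was at 2.34, 2.38 and 1.38 FPKM in I/R replicates 1, 2 and 3, and at 1.28, 0.980 and 1.62 FPKM in Sham replicates 1, 2 and 3. I/R replicates 1 and 2 lay above every Sham heart and I/R replicate 3 lay among them. The reads were 111 over the I/R hearts (91.3 to 134) and 75 over the Sham hearts (59.0 to 94.0), by exact Poisson intervals. The difference of 0.40 ± 0.23 (95% interval −0.16 to 0.95) did not pass the test (limma, adjusted p = 0.708; exact permutation p = 0.2). The transcript ENSMUST00000231410 held 109 of the I/R reads and 71 of the Sham reads, and ENSMUST00000023672 held 2 and 4. Adding 1 FPKM before the log understates the change of genes at this level, and with 0.1 FPKM added the difference of Rcan1 was 0.60 (limma, adjusted p = 0.714).

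All 6 genes had a higher mean in I/R than in Sham hearts, against 54.9% of the 5041 protein-coding genes tested, but 1 of the 6 had groups that did not overlap and 0 passed the adjustment over all genes. The median difference was 0.71 over the 3 core genes and 0.11 over the other 3, beside 0.021 over all protein-coding genes. The members were chosen with earlier results of these data known, so these counts and medians only describe them. The differences of Ankrd2 and Ctgf changed sign with 1 heart left out.

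Of 22 targets of YAP and TEAD, 12 had rows and 9 were tested, members included. Of these 9, 6 were higher and 3 lower by the mean and 0 passed the test, with a median difference of 0.063 that ranged from 0.024 to 0.19 with 1 heart left out. Only Ankrd1, Cyr61, Dock5 and Igfbp3 averaged 5 FPKM or more, and their median of 0.31 rests in part on the members themselves. Dock5, which encodes a Rac activator, differed by 0.20 ± 0.14. The Hippo kinase gene Lats2, itself a target, was at 0.861, 0.744 and 0.846 FPKM in I/R and at 1.34, 1.72 and 2.75 FPKM in Sham. Its I/R hearts all lay below the Sham hearts (−0.66 ± 0.23; limma, adjusted p = 0.519), but it had 6 reads over the I/R hearts and 15 over the Sham hearts, and differed by −1.09 with 0.1 FPKM added.

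Among components of the Hippo pathway 15 of 24 genes had rows, and 9 were tested, 3 higher and 6 lower by the mean. Tead1, a DNA-binding partner of YAP, was at 28.4, 41.9 and 39.1 FPKM in I/R replicates 1, 2 and 3, and at 26.1, 25.3 and 23.6 FPKM in Sham replicates 1, 2 and 3. Every I/R heart lay above every Sham heart, as for 8.83% of protein-coding genes, and the difference of 0.51 ± 0.17 did not pass the test (limma, adjusted p = 0.498). Its relative Tead4 differed by −0.12 ± 0.22 and the LIM domain gene Limd1, whose protein restrains LATS kinases, by −0.20 ± 0.14. Yap1 and Wwtr1, which encode YAP and TAZ, had no row. The median of the 9 genes was −0.11, and between −0.18 and 0.022 with 1 heart left out, positive only without I/R replicate 1.

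Of 28 targets of SRF and MRTF, 17 had rows and 15 were tested, Ankrd1, Cyr61 and Acta1 included. Of these 15, 10 were higher and 5 lower by the mean, with 0 passing the test. The non-muscle tropomyosin gene Tpm4 was at 214, 201 and 190.3 FPKM in I/R and at 171, 187 and 157 FPKM in Sham, so its groups did not overlap (0.23 ± 0.10; limma, adjusted p = 0.596). The early growth response gene Egr1 differed by 0.35 ± 0.21 at 91 reads over the I/R hearts and 50 over the Sham hearts, and by 0.79 with 0.1 FPKM added before the log. The list's median was 0.14, and −0.021 without I/R replicate 3.

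Of 6 actin genes, 5 had rows and 4 were tested, Acta1 included, all higher in I/R by the mean and 0 passing the test. Acta2, the smooth muscle actin, was at 401, 258 and 262 FPKM in I/R replicates 1, 2 and 3, and at 142, 372 and 222 FPKM in Sham replicates 1, 2 and 3. It was highest in the same 2 hearts as Acta1, I/R replicate 1 and Sham replicate 2. It differed by 0.40 ± 0.35, by 0.064 without Sham replicate 1, 0.19 without I/R replicate 1 and 0.76 without Sham replicate 2. The r of Acta1 and Acta2 over the 6 hearts was 0.94, the 13th highest of 2118 for Acta1. Acta1 was at 3.42, 1.35 and 2.93 times the FPKM of Acta2 in I/R replicates 1, 2 and 3, and at 1.15, 3.16 and 1.16 times in Sham replicates 1, 2 and 3. The cytoplasmic actin genes Actb and Actg1 had 17 and 60 reads over the I/R hearts, against 18 and 43 over the Sham hearts, and differed by 0.029 ± 0.27 and 0.29 ± 0.37. As for Ctgf, the levels of Actb and Actg1 may rest on part of their reads and are not a measure of cytoplasmic actin in these hearts. Actg2 had 0 reads in I/R hearts and 2 in Sham hearts.

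Of the muscle ankyrin repeat genes and partners of titin, 7 were tested, Ankrd1 and Ankrd2 included. Of these 7, 3 were higher and 4 lower by the mean, with a median of −0.053. That median was positive without I/R replicate 1, Sham replicate 1 or Sham replicate 2, at most 0.14. Ttn, which encodes titin, was at 127, 108 and 113 FPKM in I/R and at 125, 110.4 and 126 FPKM in Sham, and differed by −0.053 ± 0.11. The LIM domain genes Fhl1 and Fhl2, whose proteins bind titin, differed by −0.41 ± 0.27 and 0.14 ± 0.34. Mypn (myopalladin), whose protein binds CARP in the sarcomere, differed by −0.092 ± 0.49 and its relative Palld by −0.092 ± 0.28. The I/R and Sham hearts overlapped for each of these 5 genes.

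In the CCN family, Nov (Ccn3), which encodes a related matricellular protein, was at 9.02, 14.3 and 14.4 FPKM in I/R replicates 1, 2 and 3, and at 5.53, 9.65 and 5.54 FPKM in Sham replicates 1, 2 and 3. I/R replicate 1 lay below Sham replicate 2 and the groups overlapped (0.79 ± 0.28; limma, adjusted p = 0.513). Wisp1 (Ccn4) differed by −0.098 ± 0.26 and Wisp2 (Ccn5) by 0.26 ± 0.56. The median over the 5 genes, Cyr61 and Ctgf included, was 0.26, or −0.034 without Sham replicate 1.

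Xin proteins act at the intercalated disc. Of 8 disc genes tested 2 were higher and 6 lower by the mean (median −0.13). Ctnna3, an alpha catenin of the heart, was at 16.2, 17.7 and 15.2 FPKM in I/R and at 18.8, 19.1 and 21.5 FPKM in Sham, without overlap (−0.26 ± 0.13; limma, adjusted p = 0.647). The connexin gene Gja1 differed by −0.28 ± 0.19, the vinculin gene Vcl by −0.26 ± 0.18 and the cadherin gene Cdh2 by 0.24 ± 0.36. Of 13 Z-disc and costamere genes tested 5 were higher and 8 lower (median −0.092). Nebl, the cardiac nebulette, was lower without overlap (−0.36 ± 0.16), and Myoz2 differed by −0.19 ± 0.13. The filamin gene Flnc differed by 0.70 ± 0.36, and by 1.14 with 0.1 FPKM added. The paxillin gene Pxn, with 7 reads over the I/R hearts and 18 over the Sham hearts, differed by −0.46 ± 0.32, and by −1.55 with 0.1 FPKM added. None of these 8 genes passed the test over all genes.

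Beside Rcan1, the calcineurin list had 5 genes tested. Rcan2, a second calcineurin inhibitor, differed by −0.21 ± 0.24, Myoz2, which encodes a calcineurin-binding Z-disc protein, by −0.19 ± 0.13 and Mef2c, a transcription factor of muscle, by 0.31 ± 0.32. With 1 heart left out, Rcan2 ranged from −0.43 to −0.088, Myoz2 from −0.30 to −0.066 and Mef2c from 0.064 to 0.53. The median over the 6 genes, Rcan1 included, was −0.025, and 0.080 without I/R replicate 2. Of the markers of cardiac hypertrophy, Nppa (natriuretic peptide A) was at 465, 583 and 811 FPKM in I/R and at 329, 672 and 468 FPKM in Sham and differed by 0.36 ± 0.30. That difference was 0.11 without Sham replicate 1, 0.15 without I/R replicate 3, 0.55 without I/R replicate 1 and 0.62 without Sham replicate 2. The r of Nppa with Cyr61 over the 6 hearts was 0.90. Myh6, the adult myosin heavy chain, differed by −0.33 ± 0.16, and by −0.18 with its most abundant listed transcript alone. Myh6 had 200 reads over the I/R hearts and 279 over the Sham hearts, and, as for Ctgf, its level may rest on part of its reads.

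**Figure D4:**
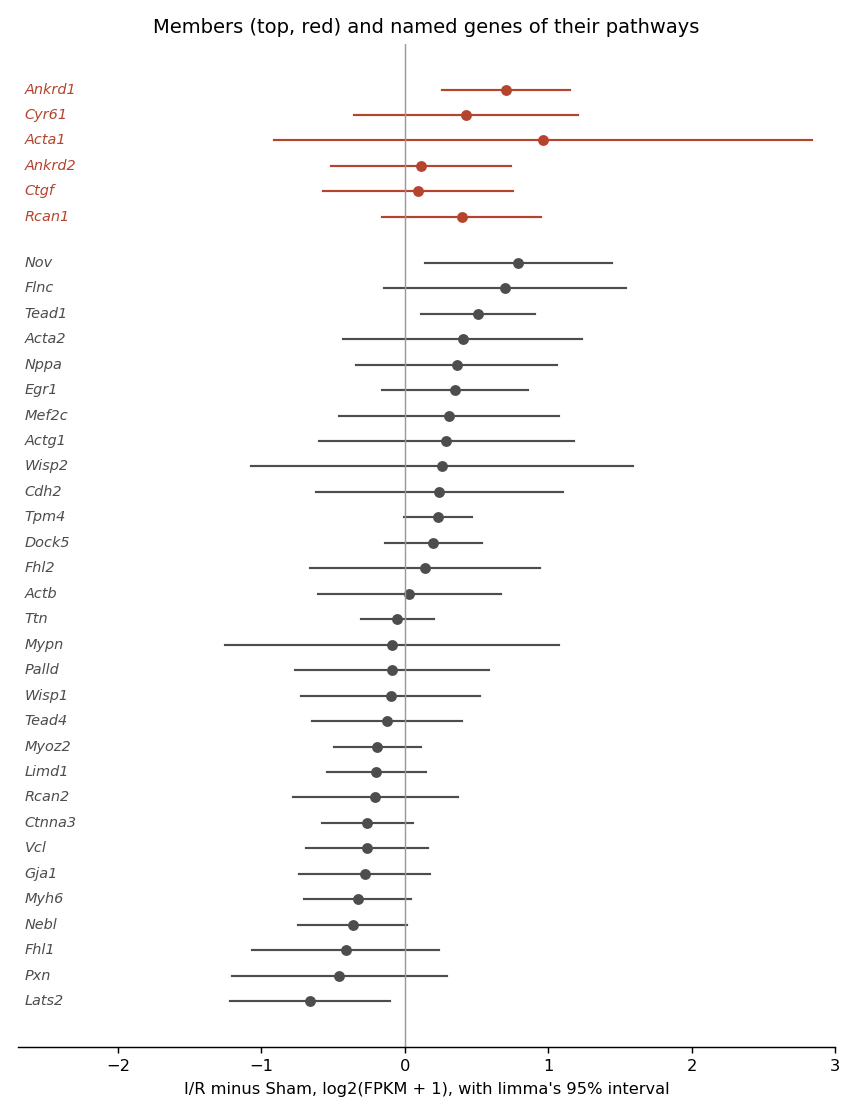
Difference of I/R minus Sham hearts in log2(FPKM + 1) (x axis) with limma's 95% interval for the 6 members (red, top) and the named genes of their pathway lists (grey). The interval of Ankrd1 ran from 0.26 to 1.15, and those of Cyr61, Acta1, Ankrd2, Ctgf and Rcan1 covered 0. The intervals are not adjusted for the number of genes.

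Because Acta1 and Ankrd2 are also skeletal muscle genes, and Cyr61 and Ctgf also genes of fibroblasts and vessels, markers of these cells were read in the same hearts. Of 17 skeletal muscle markers, 8 had rows and 3 were tested. Some were at or near 0, with at most 1 read of Mylpf and of Tnnc2, 3 of Actn3, 4 of Myod1 and 7 of Tnnt3 in any heart. Myh1, Myh2 and Myh4 had no row. Atp2a1 had 21 to 39 reads per heart. Mybpc2 was well above 0, at 18.1, 13.7 and 20.7 FPKM in I/R replicates 1, 2 and 3. In Sham replicates 1, 2 and 3 Mybpc2 was at 15.4, 22.4 and 10.4 FPKM. The summed level of the 8 was 64.5 to 107 FPKM in I/R and 83.1 to 88.6 FPKM in Sham, nearly all from Mb and Mybpc2. The part of skeletal muscle RNA in the Acta1 levels was not tested. Fibroblast markers (9 of 10 with rows) summed to 471 to 515 FPKM in I/R and 359.99 to 443 FPKM in Sham, and macrophage markers (5 of 9) to 1097 to 1192 FPKM in I/R and 886 to 1064 FPKM in Sham. Both sums were higher in every I/R heart than in any Sham heart, and their part in the Ankrd1 difference was not tested. Gene by gene, the groups did not overlap for 2 of 7 fibroblast markers tested, Col1a1 and Col3a1. The same held for 2 of 5 macrophage markers, C1qb and Cd14, beside 8.83% of protein-coding genes with I/R higher. Lyz2, the largest part of the macrophage sum, overlapped, at 671 FPKM in I/R replicate 1 and 696 FPKM in Sham replicate 3. Smooth muscle and pericyte markers (5 of 9), a list that holds Acta2, summed to 795 to 1131 FPKM in I/R and 810.1 to 1064 FPKM in Sham, nearly all from Rgs5 and Acta2 itself. Tagln, another smooth muscle gene, had a different order, at 1.06, 4.87 and 6.58 FPKM in I/R replicates 1, 2 and 3, and at 1.37, 8.71 and 8.62 FPKM in Sham replicates 1, 2 and 3. It was lowest in I/R replicate 1, where Acta1 and Acta2 were highest, and Cnn1 was second lowest there. Of 9 endothelial markers 5 had rows and 4 were tested, 2 higher and 2 lower by the mean. Their sum, 118 to 147 FPKM in I/R and 98.3 to 127 FPKM in Sham, was mostly the VEGF receptor gene Kdr (0.33 ± 0.15), while the receptor gene Tie1 was lower without overlap (−0.61 ± 0.21; limma, adjusted p = 0.501). Of the 9 ventricular markers with rows, 2 were higher and 7 lower in I/R by the mean, with a median difference of −0.33. That median is the value of Myh6. The levels of Myh6 and of other markers in the list, such as Tnnt2, may rest on part of their reads. Pln, which encodes the calcium pump inhibitor phospholamban, was at 84.3, 61.0 and 59.3 FPKM in I/R and at 131, 99.4 and 119 FPKM in Sham (−0.77 ± 0.17; limma, adjusted p = 0.386). Cardiac troponin T (Tnnt2) was at 27.8, 25.4 and 33.0 FPKM in I/R and at 41.5, 40.9 and 37.5 FPKM in Sham (−0.47 ± 0.13; limma, adjusted p = 0.457). Every I/R heart lay below every Sham heart for both, as for 5.12% of protein-coding genes, and the part of muscle cell content in the Ankrd1 difference was not tested. The list's sum, 9634 to 10464 FPKM in I/R and 9654 to 10265 FPKM in Sham, came almost entirely from Fabp3, named after its values were seen. Epicardial markers (4 of 6) summed to 0.232 to 1.63 FPKM in I/R and 0.557 to 1.51 FPKM in Sham.

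The atrial markers as a list did not share one order of hearts, though Myl7 and Sln did. The atrial light chain gene Myl7 was at 0.22, 326 and 10.4 FPKM in I/R replicates 1, 2 and 3. In Sham replicates 1, 2 and 3 it was at 0.342, 43.2 and 115 FPKM. Sln was at 0, 43.2 and 0.679 FPKM in I/R and at 0, 4.25 and 12.2 FPKM in Sham, in the same replicate order. Its order of hearts was that of Myl7, except that I/R replicate 1 and Sham replicate 1 were tied at 0. Of 7 atrial markers, 6 had rows, and their sum was 466 to 953 FPKM in I/R and 330.1 to 722 FPKM in Sham, mostly from Nppa. The hearts with least Myl7 were I/R replicate 1, where Ankrd1 and Acta1 were highest, and Sham replicate 1, where both were lowest. Myl4 had a different order, with 1.07, 0.751 and 0.436 FPKM in I/R replicates 1, 2 and 3, and 1.03, 2.13 and 1.34 FPKM in Sham replicates 1, 2 and 3. Its levels rest on only 3 to 14 reads per heart. The part of atrial tissue in the levels of Ankrd1 and Acta1 was not tested.

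**Figure D5:**
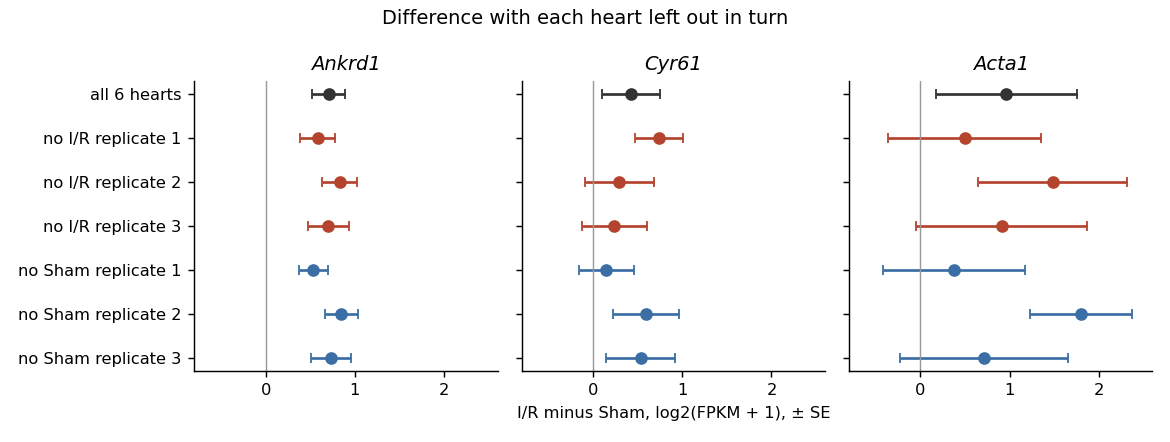
Difference of I/R minus Sham hearts in log2(FPKM + 1) ± SE (x axes) for Ankrd1, Cyr61 and Acta1, with all 6 hearts (top) and with each I/R heart (red) or Sham heart (blue) left out in turn. Ankrd1 stayed between 0.54 and 0.85, Cyr61 between 0.15 and 0.74, and Acta1 between 0.38 and 1.80.

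In the annotation that the table itself carries, Acta1 was one of 33 genes under response to mechanical stimulus, Ankrd1 one of 43 under the cellular response to it, and Ankrd1 and Ankrd2 2 of 9 under response to muscle stretch. These sets were looked up after the data had been seen. Of the 26, 36 and 6 genes tested in them, 17, 23 and 5 were higher in I/R by the mean, beside 54.9% of all protein-coding genes, and the medians were 0.11, 0.049 and 0.16. The numbers of genes whose groups did not overlap with I/R higher were 3, 6 and 1, and with I/R lower 1, 0 and 1, beside 8.83% and 5.12% of all protein-coding genes.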

How the data were processed

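RNA of 6 mouse hearts, called biological replicates by the labels, was sequenced after poly(A) selection with NEBNext kits. HTSeq 0.10.0, HISAT2 2.1.0, fastp 0.23.0 and bcl2fastq 2.19.1.403 appear in the submitters' processing notes, as do the builds mm10, GRCm38 and GRCm39, with no role given. The deposited values are FPKM per transcript, made by the authors, for each library. Of 21198 rows 40 repeats were dropped, and FPKM were summed per gene. Coordinates are the table's, whose build is not stated in its header. The start of Ankrd1 equals that of the RefSeq gene of GRCm38.p6, while the starts of Cyr61, Acta1, Ankrd2 and Rcan1 differ from RefSeq's.

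The 12114 genes averaging 0.5 FPKM or more entered a limma 3.58.1 model (R 4.3.3) of log2(FPKM + 1), with a variance trend, two-sided, Benjamini-Hochberg adjusted. Reads were recovered as whole multiples (within 0.001) for 11744 of 11745 mRNA rows. The fit and the recovery were tested on simulated data. Python 3.11.15, scipy 1.17.1 and matplotlib 3.10.9 were used. The labels do not say whether the hearts were paired, and p-values measure the spread between these hearts. The members, lists and tests were chosen with earlier results of these data known. Named genes are the members, their small families and up to 4 per list by smallest p, and for likeness 5 per core gene, of which 1 is not reported here. A planned share of Acta1 in Acta1 plus Actc1 was not computed, since Actc1 had no row.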

Additional observations from a re-analysis of the deposited data

How the results depend on the processing

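Alternatives were pseudocounts of 0.1 and 0.5 FPKM, no filter and a filter at 5 FPKM, upper quartile scaling, quantile normalization, limma without a trend or with array weights, protein-coding genes only, the most abundant transcript per gene, limma voom on recovered reads, a replicate block and each heart left out. In each of them 0 genes had an adjusted p under 0.05, and Ankrd1, Cyr61 and Acta1 kept a positive difference. Over settings with all hearts Ankrd1 ranged from 0.65 to 0.71 (adjusted p 0.265 to 0.555), Cyr61 from 0.33 to 0.50 and Acta1 from 0.71 to 0.97. Ankrd2, Ctgf and Rcan1 were below the filter at 5 FPKM. Actb was −0.0021 under upper quartile scaling, the one named gene to change sign with all hearts. With 1 heart left out, some small differences changed sign: Actb ranged from −0.15 to 0.18, Actg1 from −0.045 to 0.66, Ankrd2 from −0.077 to 0.34, Cdh2 from −0.0081 to 0.56, Ctgf from −0.19 to 0.27 and Fhl2 from −0.24 to 0.40. Mypn ranged from −0.42 to 0.33, Palld from −0.26 to 0.14, Tead4 from −0.22 to 0.019, Wisp1 from −0.27 to 0.13 and Wisp2 from −0.33 to 0.64. The cause was not tested.

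Replicate numbers do not pair the hearts by the labels. Deviations from the group means correlated over genes at 0.153, 0.0283 and 0.0287 for hearts numbered 1, 2 and 3, and I/R replicate 3 correlated best with Sham replicate 2 (0.111). With a replicate block 0 genes were called, and Cyr61 had 0.43 ± 0.091 (limma, adjusted p = 0.371).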
